A study of Homo sapiens with 9 samples.

Results

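The genes that encode the catalytic and regulatory subunits of phosphoinositide 3-kinase (PI3K) were followed through a pooled knockout screen in RH4 cells, an established human line of fusion-positive rhabdomyosarcoma. Members were listed by gene name, with earlier results of these data known: PIK3CA, PIK3CB, PIK3CD and PIK3CG, which encode the class I catalytic subunits p110α, p110β, p110δ and p110γ; PIK3R1, PIK3R2 and PIK3R3, which encode regulatory subunits of class I; and PIK3C3 and PIK3R4, which encode the class III kinase VPS34 and its partner VPS15. Of these 9 genes, 8 were found in the count table of 763 genes, with 4 single guide RNAs (sgRNAs) each, or 32 of 3152 sgRNAs in all. PIK3R2 was not analysed here. All 32 sgRNAs passed the minimum of 30 reads on average and were tested. The table names sgRNAs by gene, and the 4 sgRNAs of each gene are numbered here in the order of the table.

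Every group carried the same Cas9 kinome library, introduced by lentivirus at a coverage of 1000 cells per sgRNA and selected from 48 h on with puromycin at 0.25 µg/ml for 72 h. The cells of the pralatrexate and vehicle groups then recovered for 72 h before treatment began, and were passaged every 4 days under treatment. The pralatrexate group grew for 10 days in pralatrexate at 1.5 nM, an antifolate drug whose target is dihydrofolate reductase, the vehicle group grew for the same 10 days without drug, and the baseline group was taken at the end of selection. The time between baseline and day 10 therefore includes the recovery. Each group had 3 libraries, made by sequencing the sgRNA cassette from genomic DNA. The screen asked which kinase knockouts leave RH4 cells more sensitive to pralatrexate, and the baseline shows which are lost or gained over the culture itself. Reads of an sgRNA follow the share of cells that carry it. They do not measure how many of those cells lost the gene, or the expression of any gene, and the results describe a single cell line. The libraries of a group are numbered as repeats in the labels, and the study calls them triplicate cultures in one place and technical replicates in another. The p-values of single sgRNAs and of tests on gene sums or gene levels thus cover only the variation among these libraries, which may be technical. Gene p-values from rank aggregation, used for most calls below, measure how the sgRNAs of a gene rank together. They take these sgRNAs as independent, although the sgRNAs share the libraries. The study's main text also describes a longer puromycin selection than its methods and the labels do, so the time from infection to baseline is uncertain.

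Class I PI3Ks are recruited to activated receptor tyrosine kinases or G protein-coupled receptors and phosphorylate the membrane lipid PIP2 to PIP3, which brings AKT and PDPK1 to the membrane and feeds mTOR signalling and growth. p110α, p110β and p110δ each bind a p85-type regulatory subunit that stabilises the catalytic subunit and at the same time restrains its activity until the receptor is engaged. PIK3R1 encodes the p85α subunit with its shorter forms p55α and p50α, and PIK3R3 encodes p55γ. p110γ binds other regulatory subunits, among them the product of PIK3R5, and p110γ and p110δ are known mainly from leukocytes. VPS34 makes a different lipid, PI3P, on endosomes and autophagosomes, where it works in complex with VPS15. IGF and FGF receptor signalling through PI3K is a known feature of rhabdomyosarcoma.

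Libraries held 2468136 to 4227230 reads with pralatrexate, 3194504 to 4602712 with vehicle and 3483100 to 4431337 at baseline. The 32 member sgRNAs together took 0.831% to 0.853% of the reads with pralatrexate, 0.898% to 0.904% with vehicle and 1.04% to 1.06% at baseline. Over the 99 non-targeting sgRNAs tested, which cut no gene, the median log2 fold change was −0.0041 for pralatrexate against vehicle, 0.34 for pralatrexate against baseline and 0.31 for vehicle against baseline. Over the 763 genes it was 0.0052, 0.014 and 0.018 in the same order. Values against baseline therefore depend on whether all sgRNAs or the non-targeting ones set the zero, by about 0.3 on the log2 scale, whereas the comparison of the 2 day 10 groups does not, and both scales are given below where this matters. The 3 comparisons share libraries in pairs and are not independent of each other.

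Pralatrexate depleted 1 of the 8 PI3K subunit genes relative to vehicle, PIK3R1, and enriched none (edgeR sgRNA p-values combined by rank aggregation, with the false discovery rate, FDR, taken over all 763 genes). Of all genes 0.524% were depleted and 0% enriched at the same threshold. At an unadjusted p under 0.05 the counts of members were also 1 and 0, as they were with edgeR on summed reads and with limma on gene means. Over all 763 genes, summed reads called 6 depleted and 1 enriched, and limma called 4 and 1. The share of all genes at the unadjusted threshold is not given here. Mean log2 CPM (read counts scaled to library size) over the 4 PIK3R1 sgRNAs were 8.04, 8.12 and 7.98 in pralatrexate libraries 1, 2 and 3, against 8.28, 8.56 and 8.48 in vehicle libraries 1, 2 and 3. The highest pralatrexate library lay below the lowest vehicle library. In 3.41% of all genes the 3 pralatrexate libraries likewise lay below the 3 vehicle libraries, and PIK3R1 was the only member among them. No member was in the opposite position, which 3.67% of genes held. The log2 fold change of PIK3R1 was −0.40 ± 0.08 (SD over 4 sgRNAs; rank aggregation on edgeR p-values, FDR 0.000277), which put its sgRNAs at 75.6% of their vehicle abundance. It ranked 3 from the lowest of 763 genes by mean fold change. limma on the gene means gave a 95% interval of −0.57 to −0.21 and an adjusted p of 0.0373. An exact two-sided permutation test on the level relative to non-targeting sgRNAs gave p = 0.1, the smallest that 3 libraries against 3 allow.

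All 4 PIK3R1 sgRNAs were lower with pralatrexate. The most abundant, sgRNA 1, stood at 525, 518 and 544 CPM in the pralatrexate libraries, against 663, 688 and 718 CPM in the vehicle libraries. sgRNA 2 stood at 153, 124 and 131 CPM with pralatrexate, against 182, 170 and 201 CPM with vehicle. For both, no pralatrexate library reached the vehicle range, a position whose share over all sgRNAs is not given here. sgRNA 3 stood at 187, 222 and 170.0 CPM with pralatrexate, against 186, 384 and 243 CPM with vehicle. sgRNA 4 stood at 318, 419 and 335 CPM with pralatrexate, against 410, 449 and 461 CPM with vehicle. The last 2 overlapped, sgRNA 3 because vehicle library 1 was at the level of the pralatrexate libraries and sgRNA 4 because pralatrexate library 2 was above vehicle library 1. The log2 fold changes were −0.38 ± 0.10, −0.44 ± 0.19, −0.49 ± 0.20 and −0.30 ± 0.12 (SE, edgeR) for sgRNAs 1 to 4. Of the 99 non-targeting sgRNAs, 1 lay below sgRNA 1, 0 below sgRNA 2, 0 below sgRNA 3 and 1 below sgRNA 4. Taken singly, 0 of the 32 member sgRNAs passed FDR 0.05 by edgeR in either direction, and 4 lower and 0 higher had an unadjusted p under 0.05, the 4 being those of PIK3R1. The share of all targeting sgRNAs at that unadjusted threshold is not given here, so the 4 have no background beside them. At FDR 0.05 edgeR called 0.0328% of targeting sgRNAs lower and 0% higher in this comparison. DESeq2 called 1 of the 32, PIK3R1 sgRNA 1, at −0.38 with an FDR of 0.00824. The share of all targeting sgRNAs that DESeq2 called is not given here, so this call has no background beside it.

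**Figure D1:**
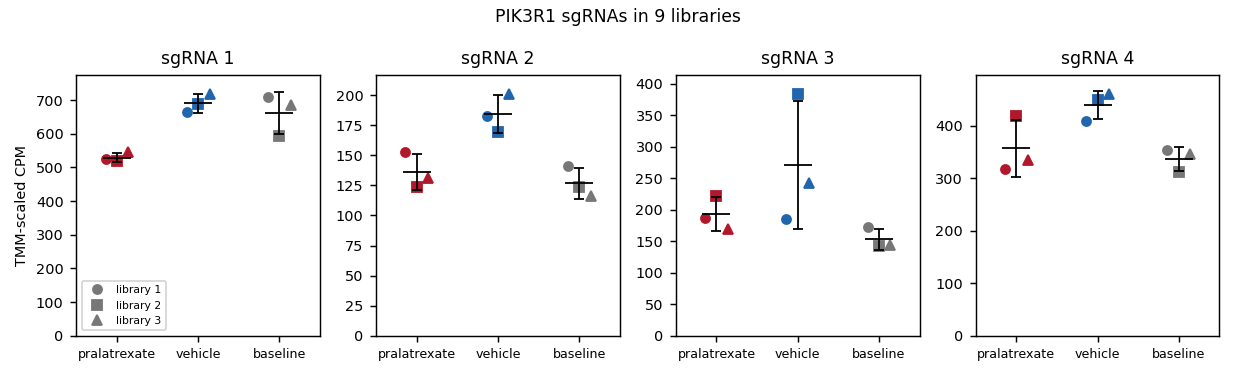
CPM, scaled by edgeR's TMM method, of the 4 PIK3R1 sgRNAs in the pralatrexate, vehicle and baseline libraries (points, shaped by library number), with mean and SD as bars (n = 3 libraries) and the vertical axis from 0 in each panel. sgRNAs 1 and 2 show no overlap between pralatrexate and vehicle (the share of all sgRNAs without overlap is not given), and the vehicle spread of sgRNA 3 is wide because of library 2 at 384 CPM.

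The 4 sgRNAs of a gene act on the same target and share the libraries, so their likeness is not a replicate of the condition. All 4 sgRNAs were lower for 3 of the 8 members (PIK3R1, PIK3R4 and PIK3C3) and in 7% of the genes tested with 4, and all 4 were higher for none and in 6.47%. Among these genes 17% had a smaller SD among sgRNAs than PIK3R1. PIK3R1 stayed depleted when its strongest sgRNA was left out, at −0.37 with an FDR of 0.00501. It was no longer called without vehicle library 2, the library with the highest value of sgRNA 3, at −0.33 with an FDR of 0.0896. The other libraries left out in turn gave −0.48 to −0.37, all with an FDR under the threshold.

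The other 7 members did not pass the test with pralatrexate. Their log2 fold changes against vehicle ran from −0.15 to 0.06, with 20 of their 28 sgRNAs lower and 8 higher. The 3 other class IA and IB catalytic genes tested beside p110α stood at −0.05 ± 0.11 for PIK3CB, −0.08 ± 0.10 for PIK3CD and −0.09 ± 0.16 for PIK3CG, and PIK3CA itself stood at 0.04 ± 0.14 (SD over 4 sgRNAs each). PIK3R3, the other regulatory subunit, stood at 0.06 ± 0.17. The class III pair stood at −0.15 ± 0.06 for PIK3C3 and −0.12 ± 0.10 for PIK3R4, with all 8 of their sgRNAs lower and none called. The limma 95% intervals for the difference in level were −0.13 to 0.20 for PIK3CA, −0.19 to 0.10 for PIK3CB, −0.22 to 0.07 for PIK3CD, −0.23 to 0.06 for PIK3CG and −0.11 to 0.22 for PIK3R3. They were −0.40 to 0.09 for PIK3C3 and −0.30 to 0.05 for PIK3R4, so the limma estimate for PIK3R1, −0.39, lies within the interval of PIK3C3 and outside those of the other 6. The interval of PIK3R1 itself, −0.57 to −0.21, overlaps those of PIK3C3, PIK3R4, PIK3CG and PIK3CD. Whether PIK3R1 differs from any of these genes was not tested. The difference between PIK3R1 and PIK3R3, a pair set side by side after their values were seen, was −0.70 to −0.55 in the pralatrexate libraries and −0.29 to −0.08 in the vehicle libraries on the log2 CPM scale, without overlap. At baseline this difference was −0.69 to −0.43, which overlapped the pralatrexate range and not the vehicle range. The share of gene pairs without overlap is not given here.

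**Figure D2:**
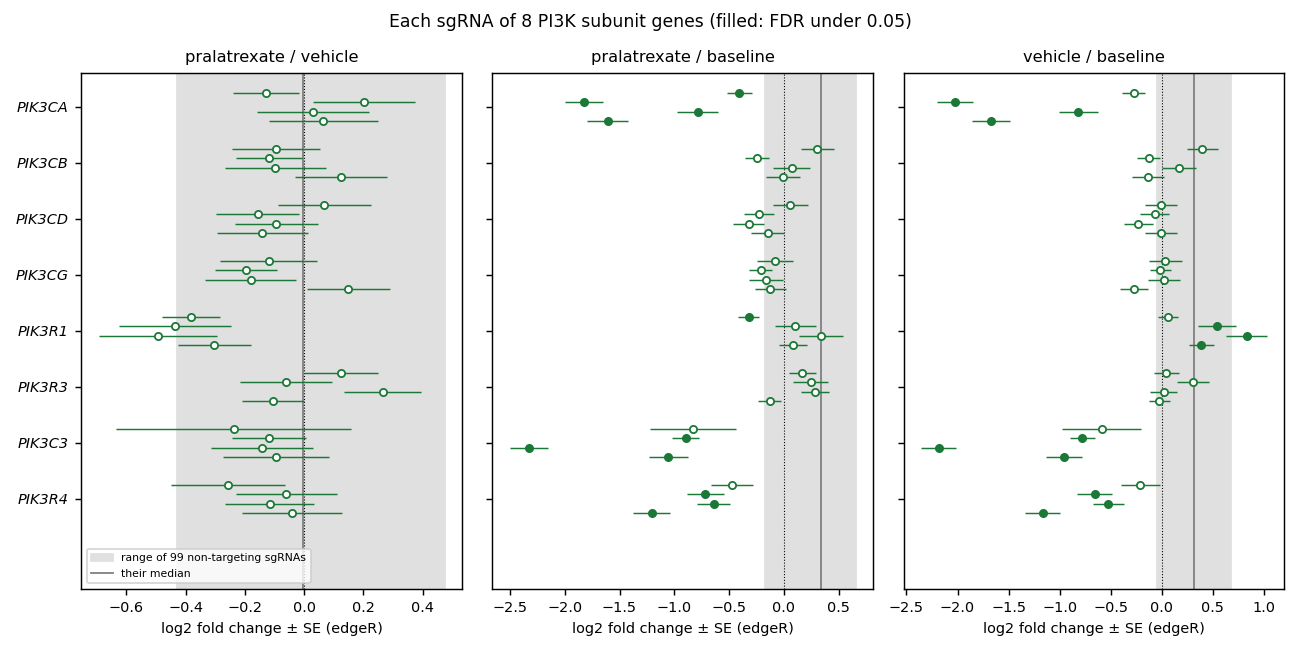
Log2 fold change ± SE (edgeR) of each of the 4 sgRNAs of the 8 PI3K subunit genes, in separate panels for pralatrexate against vehicle, pralatrexate against baseline and vehicle against baseline, each with its own horizontal scale. Filled points have an FDR under 0.05, the grey band is the range of 99 non-targeting sgRNAs and the grey line their median. The 4 PIK3R1 points lie near the lower edge of the band in the first panel, and the points of PIK3CA, PIK3C3 and PIK3R4 spread to the left in the other panels.

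Set against baseline, PIK3R1 looked different in the 2 day 10 groups. Its mean log2 CPM was 8.05 ± 0.07 with pralatrexate, 8.44 ± 0.15 with vehicle and 8.001 ± 0.115 at baseline (SD, n = 3 libraries each). The pralatrexate libraries overlapped the baseline libraries, which stood at 8.13, 7.90 and 7.97, and all 3 vehicle libraries were above them. The log2 fold change was 0.05 ± 0.27 for pralatrexate against baseline and 0.45 ± 0.32 for vehicle against baseline (SD over 4 sgRNAs), and neither passed the rank aggregation on edgeR p-values (enrichment FDR 1 and 0.259). PIK3R1 ranked 761 of 763 from the lowest by mean fold change for vehicle against baseline. Of its sgRNAs, sgRNA 1 was at 0.06 and the other 3 were called higher singly, sgRNA 2 at 0.54 (edgeR FDR 0.0431), sgRNA 3 at 0.83 (FDR 0.00319) and sgRNA 4 at 0.38 (FDR 0.0271). These 3 were the only member sgRNAs called higher in that comparison, in which 5.22% of all targeting sgRNAs were. PIK3R1 was also the only member with all 4 sgRNAs above 0, as were 15.9% of the genes tested with 4. Methods that average over the gene in place of ranking its sgRNAs did call the gene, at 0.30 with edgeR on summed reads (FDR 0.000749) and at 0.44 with limma on gene means (FDR 0.00058). These methods called more genes enriched here, 110 of 763 on summed reads and 9.04% with limma, beside 0.393% by rank aggregation.

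On the scale of the non-targeting sgRNAs the same libraries read otherwise. PIK3R1 then stood at −0.50 ± 0.08 with pralatrexate, −0.11 ± 0.13 with vehicle and −0.23 ± 0.11 at baseline (SD, n = 3 libraries each). Vehicle and baseline libraries overlapped on this scale and the pralatrexate libraries were below both. On this scale 81.4% of all genes had all 3 pralatrexate libraries below baseline, so that position is not particular to PIK3R1. All 3 vehicle libraries were below baseline in 84.4% of genes. The fold change against baseline was −0.29 for pralatrexate and 0.14 for vehicle after subtracting the non-targeting median. The position of PIK3R1 between pralatrexate and vehicle was −0.40 on either scale, whereas its direction between pralatrexate and baseline turned with the scale and was not called on either.

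**Figure D3:**
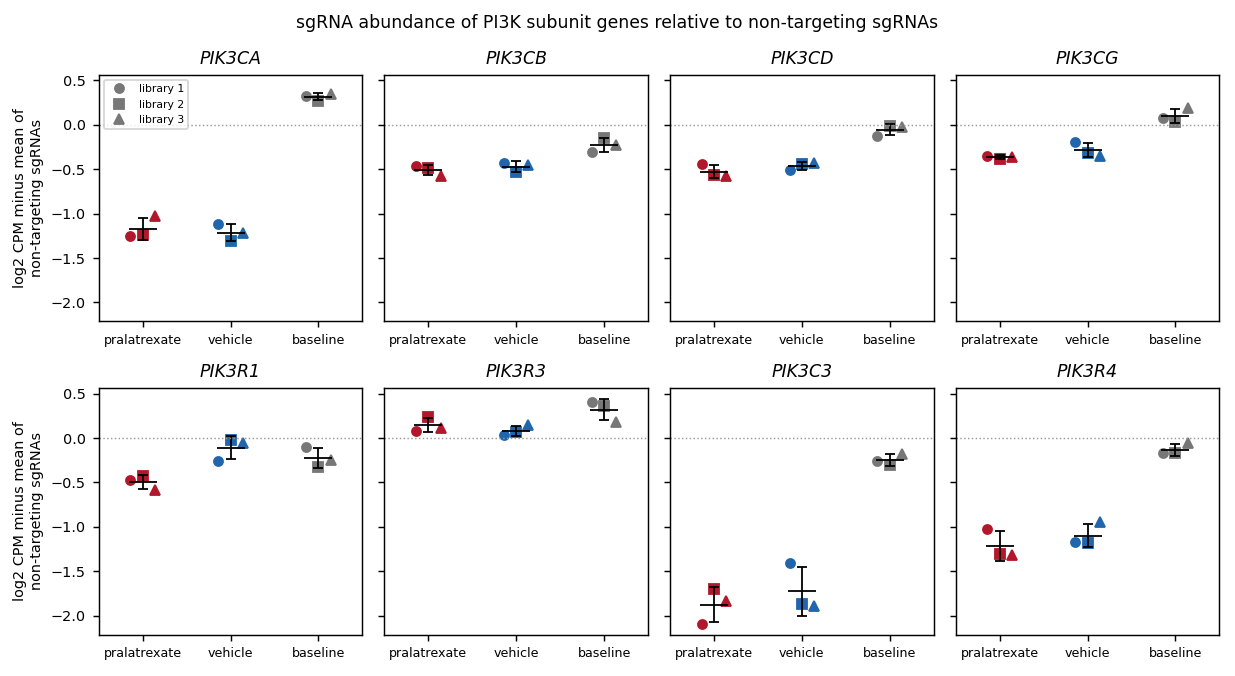
Mean log2 CPM of the 4 sgRNAs of each PI3K subunit gene minus that of the non-targeting sgRNAs, for the pralatrexate, vehicle and baseline libraries (points, shaped by library number), with mean and SD as bars (n = 3 libraries). PIK3CA, PIK3C3 and PIK3R4 are far lower in both day 10 groups than at baseline, and PIK3R1 is lower with pralatrexate than with vehicle.

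PIK3CA, which encodes p110α, was depleted between baseline and day 10 in both arms. Its mean log2 CPM was 7.26, 7.31 and 7.54 in pralatrexate libraries 1 to 3, 7.41, 7.27 and 7.33 in vehicle libraries 1 to 3, and 8.55, 8.50 and 8.57 in baseline libraries 1 to 3. The day 10 groups overlapped each other and both lay far below baseline. It fell by 1.16 ± 0.67 on the log2 scale with pralatrexate (FDR 0.0090), to 44.9% of baseline, and fell by 1.20 ± 0.80 with vehicle (FDR 0.0280), to 43.6% of baseline (SD over 4 sgRNAs; rank aggregation on edgeR p-values over 763 genes). Relative to the non-targeting median the changes were −1.49 with pralatrexate and −1.51 with vehicle.

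The 4 PIK3CA sgRNAs differed in how far they dropped. sgRNA 2 had 104, 103 and 143 CPM with pralatrexate, 93.3, 116 and 94.8 CPM with vehicle, and 401, 390 and 450 CPM at baseline. sgRNA 4 had 94.3, 94.9 and 134 CPM with pralatrexate, 114, 103 and 92.5 CPM with vehicle, and 339, 343 and 306 CPM at baseline. These were the strong ones, each called in both comparisons. sgRNA 3 had 125, 166 and 162 CPM with pralatrexate, 158, 108 and 177 CPM with vehicle, and 266, 256 and 259 CPM at baseline. sgRNA 1 was the weakest, with 448, 391 and 387 CPM with pralatrexate, 496, 425 and 421 CPM with vehicle, and 544, 503 and 578 CPM at baseline. Even so, every day 10 library of sgRNA 1 lay below every baseline library, a position whose share over all sgRNAs is not given here. The log2 fold changes of sgRNAs 1 to 4 were −0.41, −1.82, −0.79 and −1.61 for pralatrexate against baseline, all 4 called, and −0.28, −2.03, −0.82 and −1.67 for vehicle against baseline, with sgRNA 1 not called (edgeR FDR 0.0801). Without sgRNA 2 the gene stood at −0.93 with pralatrexate (FDR 0.0407) and at −0.92 with vehicle, where it was no longer called (FDR 0.0925). It also missed the threshold for vehicle against baseline without vehicle library 2 (−1.17, FDR 0.0529) or vehicle library 3 (−1.19, FDR 0.0516), with nearly the same fold change.

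Counted over the members, 3 of 8 genes were depleted for pralatrexate against baseline (PIK3CA, PIK3C3 and PIK3R4), beside 7.21% of all genes, and 2 of 8 for vehicle against baseline (PIK3CA and PIK3C3), beside 6.68% of all genes. None was enriched in either by rank aggregation on edgeR p-values, beside 0.262% and 0.393% of all genes. The counts were 0 and 1 at an unadjusted p under 0.05, with edgeR on summed reads and with limma, the 1 being PIK3R1. Of all genes 8.78% and 7.86% were enriched at that unadjusted p, and 9.83% and 9.04% with limma. Summed reads called 123 and 110 of 763 genes enriched. Of the 32 member sgRNAs 11 were called lower and 0 higher for pralatrexate against baseline, where 13.5% and 5.02% of targeting sgRNAs were. For vehicle against baseline 9 were called lower and 3 higher, where 13.2% and 5.22% were. At an unadjusted p under 0.05 by edgeR, 16 were lower and 1 higher with pralatrexate, and 10 lower and 4 higher with vehicle. The share of all targeting sgRNAs at that unadjusted threshold is not given here. All 4 sgRNAs were below 0 for 4 of the 8 members in both comparisons, PIK3CA, PIK3CG, PIK3R4 and PIK3C3 with pralatrexate and PIK3CA, PIK3CD, PIK3R4 and PIK3C3 with vehicle, beside 17.2% and 17% of genes. With pralatrexate no member had all 4 above 0, beside 17.3% of genes.

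The other class I catalytic genes were near their baseline abundance. PIK3CB, which encodes p110β, averaged 8.03 ± 0.04 log2 CPM with pralatrexate, 8.08 ± 0.03 with vehicle and 7.999 ± 0.077 at baseline. PIK3CD, which encodes p110δ, averaged 8.02 ± 0.05 with pralatrexate, 8.09 ± 0.06 with vehicle and 8.17 ± 0.06 at baseline. PIK3CG, which encodes p110γ, averaged 8.18 ± 0.02 with pralatrexate, 8.27 ± 0.08 with vehicle and 8.33 ± 0.07 at baseline (SD, n = 3 libraries each). Their gene fold changes against baseline were 0.03, −0.16 and −0.15 with pralatrexate and 0.08, −0.08 and −0.06 with vehicle, and none of the 12 sgRNAs was called against baseline. The lowest of these sgRNA values was −0.32 and the highest 0.40. PIK3CD and PIK3CG were nevertheless lower in all 3 pralatrexate libraries than in any baseline library, as were PIK3CA, PIK3R4 and PIK3C3, a position that 25.6% of all genes held. On the scale of the non-targeting sgRNAs 7 of 8 members, all but PIK3R3, were lower in all 3 pralatrexate libraries than at baseline, but so were 81.4% of all genes, and 0.262% were higher. Relative to the non-targeting median the 3 genes stood at −0.31, −0.50 and −0.48 with pralatrexate and −0.24, −0.39 and −0.37 with vehicle, values that include the rise of the non-targeting sgRNAs themselves.

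The distance of PIK3CA from these 3 genes, a comparison made after the values were seen, was measured in each library as the level of PIK3CA minus the mean of PIK3CB, PIK3CD and PIK3CG. It averaged −0.70 ± 0.16 with pralatrexate, −0.81 ± 0.07 with vehicle and 0.37 ± 0.06 at baseline (SD, n = 3 libraries each). The 6 day 10 libraries ran from −0.88 to −0.52 and the baseline libraries from 0.32 to 0.44. Since both terms come from the same library, this distance does not depend on how libraries are scaled.

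PIK3R3 did not follow PIK3R1. Its mean log2 CPM was 8.59, 8.79 and 8.68 with pralatrexate, 8.57, 8.64 and 8.68 with vehicle and 8.64, 8.60 and 8.41 at baseline in libraries 1 to 3. The 3 groups overlapped on this scale. Relative to the non-targeting sgRNAs the levels were 0.08, 0.24 and 0.11 with pralatrexate, 0.04, 0.07 and 0.14 with vehicle and 0.41, 0.36 and 0.19 at baseline, where pralatrexate still overlapped baseline and vehicle lay below it. The log2 fold changes against baseline were 0.14 ± 0.19 with pralatrexate and 0.08 ± 0.15 with vehicle (SD over 4 sgRNAs), or −0.19 and −0.23 relative to the non-targeting median, and none of its sgRNAs was called in any comparison.

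The class III genes were lower at day 10 than at baseline in both arms. PIK3C3 stood at 6.43, 6.86 and 6.73 log2 CPM in pralatrexate libraries 1 to 3, at 7.13, 6.71 and 6.64 in vehicle libraries 1 to 3, and at 7.97, 7.93 and 8.05 at baseline. Day 10 libraries were all below baseline, and vehicle library 1 was the highest of them. It fell by 1.28 ± 0.71 on the log2 scale with pralatrexate (FDR 0.0340), to 41.3% of baseline, and fell by 1.13 ± 0.72 with vehicle (FDR 0.0474), to 45.7% of baseline (rank aggregation on edgeR p-values). sgRNA 3 carried the largest decrease, with 88.1, 111 and 82.9 CPM with pralatrexate, 122, 96.5 and 91.8 CPM with vehicle, and 439, 432 and 538 CPM at baseline. sgRNA 2 had 277, 317 and 246 CPM with pralatrexate, 281, 335 and 295 CPM with vehicle, and 509, 499 and 555 CPM at baseline. sgRNA 1 was the thinnest of all member sgRNAs, at 16.7, 33.1 and 54.2 CPM with pralatrexate, 69.1, 27.6 and 27.7 CPM with vehicle, and 70.5, 59.9 and 55.2 CPM at baseline. Its pralatrexate libraries held 62, 82 and 231 reads, and it was called in neither comparison. The sgRNA log2 fold changes were −0.83, −0.90, −2.33 and −1.06 with pralatrexate and −0.59, −0.78, −2.18 and −0.96 with vehicle.

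The call of PIK3C3 rested on its strongest sgRNA. Without sgRNA 3 the gene stood at −0.93 with pralatrexate (FDR 0.128) and −0.78 with vehicle (FDR 0.223). The vehicle call also ended without baseline library 3 (−1.09, FDR 0.0517), vehicle library 2 (−1.07, FDR 0.0591) or vehicle library 3 (−1.03, FDR 0.0526), and with scaling on non-targeting sgRNAs (−1.46, FDR 0.0543), no filter on low counts (−1.13, FDR 0.05003) or a block for the library number (−1.14, FDR 0.0526).

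PIK3R4 stood at 7.49, 7.24 and 7.25 log2 CPM in pralatrexate libraries 1 to 3, at 7.37, 7.40 and 7.59 in vehicle libraries 1 to 3, and at 8.06, 8.06 and 8.16 at baseline. All 6 day 10 libraries were below the 3 baseline libraries, and the day 10 groups overlapped. It fell by 0.76 ± 0.32 with pralatrexate, to 59.1% of baseline (SD over 4 sgRNAs; rank aggregation on edgeR p-values, FDR 0.0287). With vehicle the value was −0.64 ± 0.40, or 64.2% of baseline, which was not called (FDR 0.125) by rank aggregation but was by limma on gene means (FDR 8.13e-06), by edgeR on summed reads (−0.67, FDR 8.66e-09) and by rank aggregation without vehicle library 3 (−0.71, FDR 0.0391). For vehicle against baseline limma called 19.8% of all genes lower, and summed reads called 160 of 763. All 4 PIK3R4 sgRNAs were lower in both comparisons, and sgRNA 4, the strongest, had 183, 138 and 128 CPM with pralatrexate, 153, 141 and 169 CPM with vehicle, and 296, 360 and 383 CPM at baseline. Without sgRNA 4 the pralatrexate value was −0.61 and not called (FDR 0.0976), and with scaling on non-targeting sgRNAs it was −1.08 and not called (FDR 0.0703). The call with pralatrexate and its absence with vehicle are not a difference between the arms, which stood at −0.12 when set against each other and did not pass. With all sgRNAs setting the scale, for vehicle against baseline, PIK3CA, PIK3C3 and PIK3R4 were the members with all 3 libraries lower, a position of 24.4% of genes, and PIK3R1 was the only member with all 3 higher, a position of 19.5% of genes. Relative to the non-targeting sgRNAs 7 of 8 members had all 3 vehicle libraries lower, as did 84.4% of genes, and PIK3R1 overlapped, while 0.131% of genes were higher. For pralatrexate against baseline no member had all 3 libraries higher on either scale, a position of 20.3% of genes with all sgRNAs setting it. The level of PIK3C3 minus that of PIK3R4 averaged −0.66 ± 0.36 with pralatrexate, −0.63 ± 0.36 with vehicle and −0.11 ± 0.02 at baseline (SD, n = 3 libraries each). The libraries spread far more at day 10 than at baseline in this difference.

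Ordered by fold change against baseline, lowest first, the 8 genes ran PIK3C3, PIK3CA, PIK3R4, PIK3CD, PIK3CG, PIK3CB, PIK3R1 and PIK3R3 with pralatrexate. With vehicle the order was PIK3CA, PIK3C3, PIK3R4, PIK3CD, PIK3CG, PIK3CB, PIK3R3 and PIK3R1. Neighbours in these orders differed by less than the larger of their SDs over sgRNAs, except for the step between PIK3R4 and PIK3CD in both and the step between PIK3R3 and PIK3R1 with vehicle.

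The other genes of the pathway were read from lists chosen with earlier results of these data known, so the lists are a description. For pralatrexate against vehicle, none of 5 relatives of the members (the 3 class II PI3Ks, PIK3R5 and PIKFYVE), 11 receptor tyrosine kinases, 12 downstream kinases or 5 kinases that act next to the class III complex in autophagy was called by rank aggregation on edgeR p-values. Among these 33 genes 1 was lower and 0 were higher at an unadjusted p under 0.05, a threshold for which the share of all genes is not given here. limma and edgeR on summed reads called 0 of the 33. Their medians were −0.04, 0.03, 0.06 and 0.0050, beside 0.0052 over all genes, and −0.08 for the 8 subunits. PIK3R5, which encodes the p101 partner of p110γ, stood at −0.08 ± 0.17. The class II kinases stood at −0.06 ± 0.05 for PIK3C2A, 0.05 ± 0.08 for PIK3C2B and −0.04 ± 0.16 for PIK3C2G (SD over 4 sgRNAs). PDPK1 was at 0.10, AKT1 at 0.05 and MTOR at −0.07.

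Against baseline, rank aggregation called genes among the downstream kinases. With vehicle 3 of 12 were depleted: MTOR, the catalytic subunit of the mTOR complexes (−2.07 ± 1.33, FDR 0.00352), PDPK1, which phosphorylates AKT (−1.63 ± 1.27, FDR 0.0167), and AKT1 (−0.51 ± 0.14, FDR 0.0242). Both GSK3 genes, whose products AKT inhibits, were enriched, GSK3A at 0.43 ± 0.24 (FDR 0.0210) and GSK3B at 0.50 ± 0.21 (FDR 0.0360). With pralatrexate MTOR (−2.14 ± 1.64, FDR 0.00565) and PDPK1 (−1.52 ± 1.26, FDR 0.0203) were depleted and GSK3B was enriched (0.58 ± 0.16, FDR 0.00628), while AKT1 stood at −0.47 (FDR 0.0807) and GSK3A at 0.39 (FDR 0.118). Relative to the non-targeting median the vehicle values of GSK3A and GSK3B were 0.12 and 0.18. No relative, receptor or autophagy kinase was called against baseline by rank aggregation. limma called 2 of 5 relatives, 6 of 11 receptors and 4 of 12 downstream kinases lower for pralatrexate, beside 19.9% of all genes, and 2 receptors, 4 downstream kinases and 1 of 5 autophagy kinases higher, beside 9.83%. For vehicle it called 2 relatives, 4 receptors and 5 downstream kinases lower, beside 19.8%, and 3 receptors and 3 downstream kinases higher, beside 9.04%. At an unadjusted p under 0.05 rank aggregation itself had 1 relative, 3 receptors and 4 downstream kinases lower for pralatrexate, beside 14.8% of all genes, and 2 receptors, 4 downstream kinases and 1 autophagy kinase higher, beside 8.78%. For vehicle it had 1 relative, 2 receptors and 4 downstream kinases lower, beside 15.1%, and 1 relative, 3 receptors and 3 downstream kinases higher, beside 7.86%. PIK3R5 stood at −0.32 with pralatrexate and −0.25 with vehicle. The class II genes PIK3C2A, PIK3C2B and PIK3C2G stood at 0.03, 0.16 and 0.16 with pralatrexate and at 0.09, 0.11 and 0.21 with vehicle. IGF1R, the IGF receptor, named after its values were seen, had the lowest value of the 11 receptors with vehicle. It stood at −1.39 ± 1.74 (FDR 0.0874), where the SD over sgRNAs was larger than the mean. The 11 receptors ran up to 0.33 with vehicle, with a median of −0.17.

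**Figure D4:**
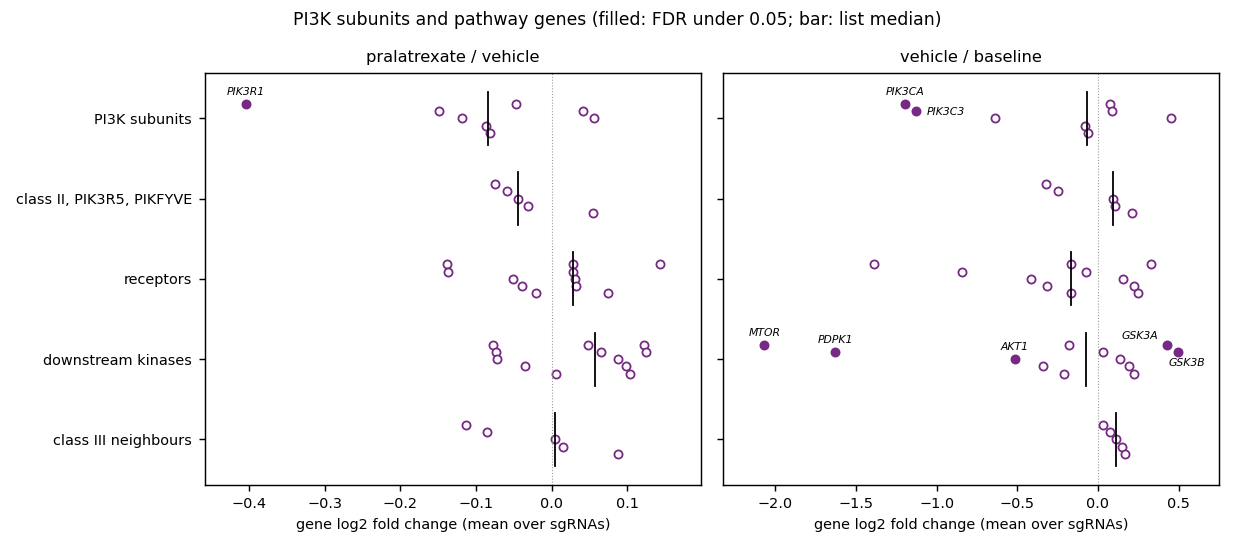
Gene log2 fold change (mean over sgRNAs) of the 8 PI3K subunit genes and of 4 lists of related kinases, for pralatrexate against vehicle and for vehicle against baseline, with separate horizontal scales. Filled, named points have an FDR under 0.05 and the bar marks the median of each list. PIK3R1 is the only filled point with pralatrexate against vehicle, and MTOR, PDPK1, PIK3CA, PIK3C3 and AKT1 are depleted and GSK3A and GSK3B enriched with vehicle against baseline.

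Over the 9 libraries the genes whose level was most like that of PIK3R1 were NADK2 (Pearson r = 0.860), CAMKV (r = 0.856) and MAST2 (r = 0.832). Their own log2 fold changes for pralatrexate against vehicle were −0.12, −0.11 and −0.25. Those most like PIK3CA were TAF1 (r = 0.996), CDK7 (r = 0.995) and TLK2 (r = 0.991), which stood at −1.68, −1.61 and −1.37 for vehicle against baseline. The libraries of a group share treatment and depth, and with 3 groups a profile over 9 libraries is mostly a pattern of group means, so these correlations describe the levels and carry no test.

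On GRCh38 (GENCODE annotation) the genes span chr5:68215740-68301821 on the plus strand for PIK3R1, chr1:46040140-46133036 on the minus strand for PIK3R3, chr3:179148114-179240093 on the plus strand for PIK3CA and chr3:138652698-138834928 on the minus strand for PIK3CB. PIK3CD spans chr1:9629889-9729114 on the plus strand, PIK3CG chr7:106865278-106908980 on the plus strand, PIK3C3 chr18:41955234-42087830 on the plus strand and PIK3R4 chr3:130678934-130746829 on the minus strand. These are spans of genes and not of cut sites, which were not placed here. PIK3CA overlaps the protein-coding gene KCNMB3 and PIK3CD overlaps CLSTN1, both on the opposite strand, and PIK3R3 shares its strand with the readthrough gene P3R3URF-PIK3R3. Whether any sgRNA cuts within an overlap was not tested.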

How the data were processed

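The authors deposited raw read counts per sgRNA, not normalized, for 9 libraries, which the submitters' processing notes associate with the aligner Bowtie 1.0.0. The counting program is not given in the sources used here. Gene tables from MAGeCK, which hold the authors' fold changes, scores and p-values of their own comparisons, were not used. No molecular identifiers are mentioned in the sources, so each PCR copy counted as a read.

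Low sgRNAs (under 30 reads on average; 7 of 3152, none of them a member) were left out. The counts were fitted with edgeR 4.0.16 in R 4.3.3 (quasi-likelihood test after TMM scaling, with a term for group, on all 9 libraries). MAGeCK was not installed, so its robust rank aggregation was run on one-sided edgeR p-values. Ranks of sgRNAs with p under 0.25 entered the score, its p came from the exact null distribution for uniform ranks, and Benjamini-Hochberg adjustment covered 763 genes in each direction (threshold 0.05). Gene fold changes are means over sgRNAs, and levels are mean log2 CPM with a prior count of 2. CPM of single sgRNAs are TMM-scaled. The methods were tested on simulated data. Alternatives used DESeq2 1.42.0 and limma 3.58.1, scaling on non-targeting sgRNAs, other filters, the compared groups alone, a replicate block, and each library or the strongest sgRNA of each gene left out.

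Library totals of 2468136 to 4602712 reads gave 783 to 1460.3 reads per sgRNA. The coefficient of variation within groups, beyond counting noise, that edgeR estimated from its common dispersion over all sgRNAs was 13.2%. Within groups, pairs of libraries had a chi-square of 10.7 to 25.8 per degree of freedom, so none was deposited more than once. Same-numbered pralatrexate and vehicle libraries deviated together (r = 0.169, 0.196 and 0.185 across sgRNAs), so the numbers pair these 2 groups, a hint from the data and not a statement in the labels. Same-numbered pairs with baseline were weaker, at 0.065, 0.023 and 0.058 for vehicle and 0.018, −0.031 and −0.0074 for pralatrexate. Those of vehicle still lay above the differently numbered vehicle and baseline pairs, which ran from −0.070 to 0.014.

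Every member was named, and of the other pathway genes those past the threshold, PIK3R5 and the class II genes, with IGF1R added after its values were seen. The members and lists were chosen with earlier results of these data known.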

Additional observations from a re-analysis of the deposited data

How the results depend on the processing

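Of 360 gene fold changes recomputed under alternatives (24 values), 322 kept their direction and side of the threshold, 14 lost a call, 7 gained one and 17 changed sign. PIK3R1 for pralatrexate against vehicle kept its call under every alternative except without vehicle library 2 (−0.48 to −0.33 over libraries left out, with an FDR of 0.00167 to 0.0896), and with the replicate block it stood at −0.40 (FDR 0.000244). The replicate block ended 1 call, that of PIK3C3 for vehicle against baseline (−1.14, FDR 0.0526), where same-numbered libraries deviated together only weakly (r = 0.023 to 0.065). PI3K genes depleted for vehicle against baseline numbered 1 with scaling on non-targeting sgRNAs (PIK3C3 at −1.46, FDR 0.0543), 1 with no filter (FDR 0.05003), 1 with the block, 0 without the strongest sgRNA, and 0 to 2 over libraries left out. Those for pralatrexate against baseline numbered 5 on summed reads (PIK3CD and PIK3CG at −0.18 each added) and 1 without the strongest sgRNA, and those for pralatrexate against vehicle 0 to 1 over libraries left out. Under non-targeting scaling PIK3R4 for pralatrexate against baseline was not called (−1.08, FDR 0.0703). PI3K genes enriched for vehicle against baseline numbered 1 on summed reads and 1 with limma. PI3K sgRNAs called lower numbered 1 for pralatrexate against vehicle with DESeq2, and with non-targeting scaling 21 for pralatrexate against baseline and 20 for vehicle against baseline, where 1 was higher. Over libraries left out, 1 to 2 were higher for vehicle against baseline. Non-targeting scaling moves the zero against baseline for all targeting sgRNAs, by about 0.3 on the log2 scale. The share of all targeting sgRNAs called under these alternatives is not given here, so the counts are no result about the members. The values that changed sign were small and uncalled. With non-targeting scaling they were, for pralatrexate against baseline, PIK3R1 (−0.27), PIK3R3 (−0.18) and PIK3CB (−0.29), and for vehicle against baseline PIK3R3 (−0.25) and PIK3CB (−0.26). On summed reads they were PIK3CA for pralatrexate against vehicle (−0.028), and PIK3R1 (−0.085) and PIK3CB (−0.047) for pralatrexate against baseline. Without the strongest sgRNA they were PIK3R3 (−0.014) and PIK3CA (−0.012) for pralatrexate against vehicle, PIK3R1 (−0.046) and PIK3CB (−0.062) for pralatrexate against baseline, and PIK3CB (−0.031) and PIK3CG (0.012) for vehicle against baseline. Over libraries left out, PIK3C3 for pralatrexate against vehicle ran from −0.24 to 0.040, PIK3CA from −0.054 to 0.096, and PIK3CB for pralatrexate against baseline from −0.0047 to 0.070. Over all genes, summed reads and limma called more than rank aggregation: 174 and 152 depleted, against 55, and 123 and 75 enriched, against 2, for pralatrexate against baseline, and 160 and 151 depleted, against 51, and 110 and 69 enriched, against 3, for vehicle against baseline. The cause of these changes was not tested.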
